A study of Mus musculus with 12 samples.

Results

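Fragments of 6 small structural RNAs were counted in the small RNA of the mouse hippocampus: the Y RNAs Rny1 and Rny3, the vault RNA Vaultrc5, the 7SK RNA Rn7sk, and the ribozyme RNAs Rmrp and Rpph1. A sequenced insert of at least 18 nt (a tag) was assigned to one of them when the whole tag matched its GENCODE transcript exactly on the sense strand and matched no miRNA hairpin. All 6 of the 6 RNAs had such tags, among 1631 annotated small noncoding RNA features with at least 1 read. They held 5757 of 70809892 accepted reads (reads kept by the authors after adapter removal), or 0.00813%. Rny1 alone gave 5041 counts on 102 distinct tags, Rny3 286 on 43, Rn7sk 256 on 87, Rmrp 131 on 19, Rpph1 23 on 12 and Vaultrc5 20 on 9.

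The study sequenced hippocampal RNA of individual male mice, C57BL/6 in its methods and C57BL/6NCrl in the labels, to follow small RNAs after electroconvulsive shock (ECS), a current across the head that makes neurons discharge together. Mice were untreated (NT) or taken 0.5, 1, 3, 6 or 24 h after ECS, and each of these 6 groups has 2 libraries, 1 in each of 2 time courses (NT-1 to 24h-1 and NT-2 to 24h-2). RNA was cut from a gel at about 18 to 24 nt by the labels and up to 25 nt by the methods, so full-length Y, vault, 7SK and ribozyme RNAs, all longer, could enter only as fragments, and the level of a fragment is not the level of its parent RNA.

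Y RNAs are short hairpin RNAs made by RNA polymerase III that bind the Ro60 protein and are known to be cut into small fragments in many tissues. Vault RNAs belong to the vault particle, and 7SK RNA holds the elongation factor P-TEFb in an inactive complex. Rmrp and Rpph1 are the RNA parts of the related ribonucleoproteins RNase MRP and RNase P, which process ribosomal and transfer RNA precursors.

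The tags that carried most of the Rny1 counts came from 3 places in the 112-nt RNA (ENSMUSG00000065701.1, chr6:47788069-47788180, minus strand, GRCm38, a single-exon gene). They are shown because nearly all positional results turn on them, in the 5′ to 3′ direction of the GENCODE M21 transcript, with the tag in capitals and up to 4 flanking bases in lower case.
Rny1 83 to 104: ccccCTTCTCACTACTGCACTTGACTagtc
Rny1 84 to 104: ccccTTCTCACTACTGCACTTGACTagtc
Rny1 1 to 20: GGCTGGTCCGAAGGTAGTGAgtta
Rny1 53 to 70: ttacAGATTGAACTCCTGTTCTacac
The tag at 83 to 104 had 1481 counts in 11 of the 12 libraries, that at 84 to 104 had 684 in 12, that at 1 to 20 had 376 in 10, and that at 53 to 70 had 86 in 9. The tags from positions 83, 84 and 53 each also matched 1 other annotated gene of the miscellaneous RNA class, whereas the tag from position 1 matched Rny1 only. In all, 1561 of the 5041 Rny1 counts came from tags that matched no other annotated small noncoding feature. The levels and positions of Rny1 below therefore depend on giving it the shared tags.

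For the other RNAs the most abundant tag is shown with, where another start held at least 10% of the gene's counts, the leading tag of that start, and for Rny3 a tag whose start lies about as far from the 3′ end as those of Rny1 at 83 and 84.
Rny3 1 to 20: GGTTGGTCCGAGAGTAGTGGtgtt
Rny3 74 to 94: tccgCTCCCACTGCTTCACTTGACCagcc
Rn7sk 240 to 257: ctcaAGGTCCATTGTAGGAGAAcgta
Rmrp 5 to 23: aggcAGCTCGCTCTGAAGGCCTGtttc
Rmrp 39 to 57: acatACGAGGGACATGTTCCTTAtcct
Rpph1 227 to 245: agctTGGAACAGACTCACGGCCAgcag
Rpph1 55 to 75: cggcCCCTGGGAAGGTCTGAGACTTgggc
Their counts were 93 and 6 for Rny3, 23 for Rn7sk, 30 and 13 for Rmrp, and 4 and 3 for Rpph1. Rny3 (ENSMUSG00000064945.1, chr6:47781624-47781725, plus strand) is 102 nt long and lies 6343 bp from Rny1 on the opposite strand. Rn7sk (ENSMUSG00000065037.1, chr9:78175303-78175633, minus strand) is 331 nt long. Rmrp (ENSMUSG00000115420.1, chr4:43492783-43493063, minus strand) overlaps an exon of Ccdc107 on the other strand. Rpph1 (ENSMUSG00000092837.1, chr14:50807449-50807767, minus strand) overlaps an exon of Ccnb1ip1 on its own strand, so that both tags shown match Ccnb1ip1 as well.

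Of the 143-nt Vaultrc5, on chromosome 18, no sequence is shown. The libraries differed in ways that touch every value below. Accepted reads ran from 1897490 to 7657222. The share that matched annotated miRNA was 10.1% to 32.7% in the first time course without NT-1, 29.1% in NT-1, and 50.9% to 69.7% in the second, with no overlap between the courses. NT-1 stood apart: 49.0% of its accepted reads were 18 or 19 nt, against 6.73% to 15.8% in the other first-course libraries and 1.68% to 5.87% in the second course, and its snRNA share of 0.0296% was above the 0.00196% to 0.00901% of the other 11. Its longest tag was 34 nt, as in each second-course library, where the other 5 first-course libraries ended at 30 nt, and 7.48% of its reads were over 24 nt, against 3.69% to 6.11% in those 5 and 6.82% to 10.8% in the second course. That NT-1 belongs to the first course rests on the replicate number in its label. The 3 neuronal marker miRNAs were present in all libraries and summed to 1.84% to 8.81% of accepted reads in the first course and 3.28% to 11.4% in the second. Of the other marker lists, the 3 muscle miRNAs (0.0615% to 0.289%, then 0.392% to 0.955%) and the 3 vascular ones (1.46% to 4.29%, then 0.318% to 0.932%) did not overlap between courses, while the 2 oligodendrocyte miRNAs (0.0793% to 0.426%, then 0.273% to 1.04%), the 4 of blood and microglia (0.0394% to 0.298%, then 0.0139% to 0.174%) and Mir122 of liver (9.17e-05% to 0.00808%, then 0.00453% to 0.0183%) did. The vascular sum was mostly Mir143 and the muscle sum mostly Mir1a, while Mir126a (log2 difference between courses 0.74, edgeR adjusted p = 0.184) and Mir133a (-0.87, edgeR adjusted p = 0.329) had the opposite sign to their lists and were not called. The blood and microglia list also split, with Mir451a called higher in the second course (2.01, edgeR adjusted p = 0.0224). Mir142 (-2.13, edgeR adjusted p = 0.0149) and Mir144 (-2.61, edgeR adjusted p = 0.0037) were called lower. Of all the markers, Mir223 alone was at 0 in some libraries. The part of these differences in the results on fragments was not tested.

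Rny1 was the most abundant of the 6, also per length, with 4501 counts per 100 nt of transcript over the 12 libraries against 280.4 for Rny3, 77.3 for Rn7sk, 46.6 for Rmrp, 14.0 for Vaultrc5 and 7.21 for Rpph1. Its median share of accepted reads was 0.00454% in the first time course, between 0.00119% in 6h-1 and 0.00661% in NT-1. The second-course median was 0.00945%, between 0.00664% in 24h-2 and 0.0126% in 3h-2. Each second-course library was above each first-course library on this scale. The highest first-course value (NT-1) and the lowest second-course value (24h-2) still lay within each other's counting error. As a percent of matched reads, those that matched any small noncoding feature, the courses overlapped. Rny1 then held 0.00866% to 0.0221% in the first course and 0.0117% to 0.0229% in the second. How many other features separated between the courses on accepted reads was not counted.

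Rny3 had 0 to 46 counts per library. Its first-course median was 0.000322% of accepted reads, between 0.000183% in 3h-1 and 0.00125% in NT-1. The second-course median was 0.000335%, between 0 of 1897490 reads in 6h-2, which allows a share of up to 0.000158%, and 0.000579% in 3h-2. On this scale, unlike for Rny1, the courses overlapped, and NT-1 was the highest library.

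Rn7sk was found in all 12 libraries. The level in NT-1 was 0.00223%, above the 0.000138% to 0.000476% of the other 5 first-course libraries and the 0.000102% to 0.000513% of the second course. NT-1 held 32.0% of all Rn7sk counts but 5.19% of all accepted reads. It also held 29.8% of the Rmrp counts, 45.0% of those of Vaultrc5, 39.1% of those of Rpph1 and 16.1% of those of Rny3, but 4.82% of those of Rny1.

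Rmrp reached 0.00106% in NT-1, then 0.000429% in 0.5h-1 and 0.000374% in 1h-1, and 6.88e-05% to 0.000132% in the remaining first-course libraries. The second course had 1.37e-05% to 0.000118%. Vaultrc5 and Rpph1 had at most 9 counts in a library (both 9 in NT-1) and none in 6 libraries each, where a count of 0 allows up to 3 counts. All intervals and floors cover counting error only, since the reads carried no molecular identifiers.

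**Figure D1:**
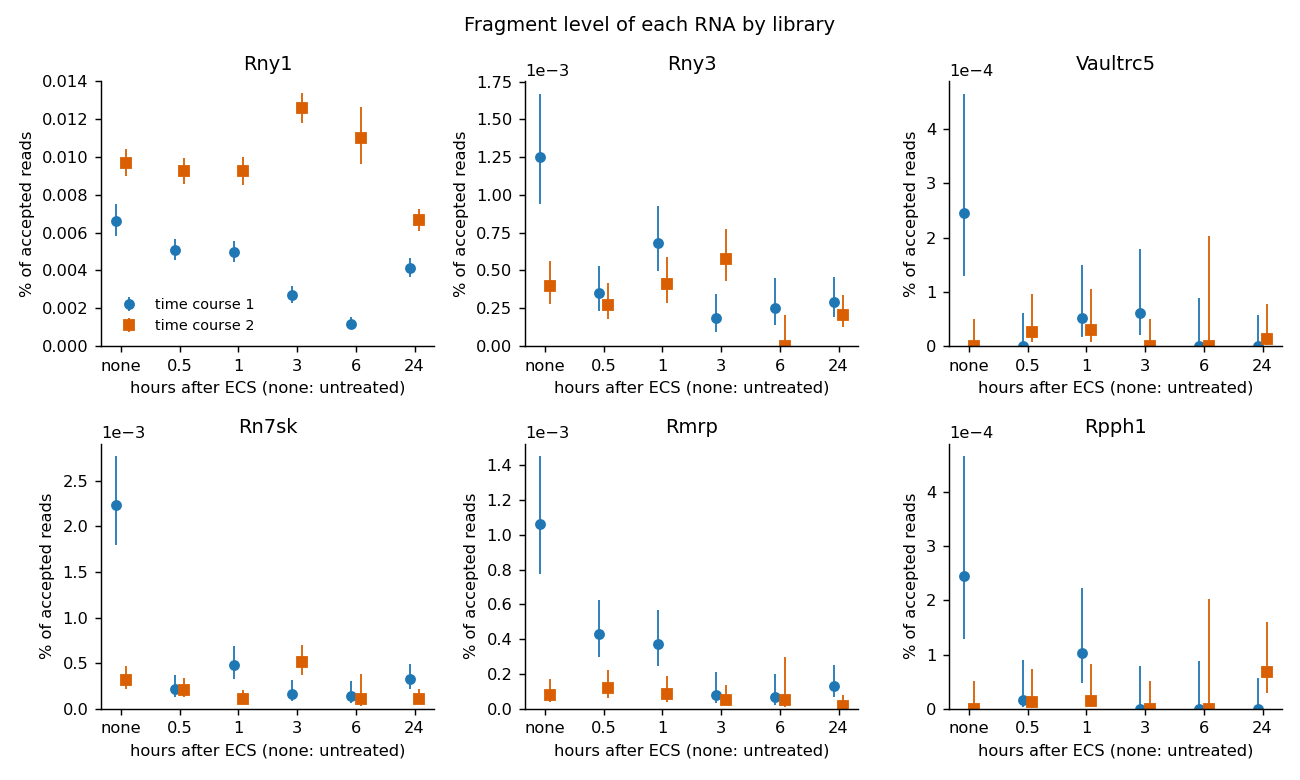
Percent of accepted reads (linear axis from 0) of each of the 6 RNAs in each library, by hours after ECS, with circles for the first and squares for the second time course. Bars are Wilson 95% intervals of the counts. All second-course squares of Rny1 lie above the first-course circle of the same time, while the other 5 RNAs have their highest point in the untreated library of the first course.

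Within Rny1, 68.1% of the counts started at position 83 or 84, 18.2% at position 1, 10.5% at positions 46 to 53 and 3.25% elsewhere. The 5′ and the 3′ tags come from the 2 strands of the Y RNA stem. In the minimum free energy fold by RNAfold (-34.3 kcal/mol), 12 base pairs join bases 1 to 20 to bases 83 to 104, and 16 of the 17 bases from 69 to 85 are unpaired. The starts at 83 and 84 thus fell at the border of the predicted loop and the stem. This is a prediction from sequence alone and was not measured here.

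The share from starts 83 and 84 was 72.7%, 61.3%, 60.9%, 34.6% and 80.0% in the libraries 0.5h-1 to 24h-1, in order of time, and 4.53% (11 of 243 counts, Wilson 95% interval 2.55% to 7.92%) in NT-1. In the second course it was 81.2% in NT-2 and 91.8%, 68.8%, 47.5%, 94.7% and 73.3% after ECS. NT-1 had no count at position 83 and lay far below the other 11 libraries, whose range was 34.6% to 94.7%. The first-course mean was 52.3% ± 28.1 (SD, n = 6) and the second-course mean 76.2% ± 17.3 (SD, n = 6), a difference of 23.9 points with the second higher at 4 of 6 times (two-sided exact permutation test that swaps the libraries of a time between courses in all 64 ways, p = 0.219, adjusted p = 0.273 over the 5 tests of position and length). Without the untreated pair the difference was 13.3 points (exact test, p = 0.438).

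In NT-1 most Rny1 counts came instead from the middle of the RNA, where 12 of the 18 bases from 53 to 70 are paired in the predicted fold. Starts 46 to 53 held 76.1% of them (Wilson 95% interval 70.4% to 81.1%). The same starts held 16.4% to 32.7% in the other first-course libraries, and 0.826% to 4.92% in the second course. As a share of accepted reads these fragments made up 0.00503% in NT-1, 0.00039% to 0.00133% in the other first-course libraries and 5.49e-05% to 0.000618% in the second course. The fragments from starts 83 and 84 made up 0.000299% in NT-1 and 0.000413% to 0.00369% in the other first-course libraries. In the second course they made up 0.00487% to 0.0104%. The courses did not overlap on this scale. Neither did the share of accepted reads that matched any small noncoding feature, at 10.3% to 32.9% and 51.1% to 69.8%. How many other features separated in this way was not counted, and the range per matched read was not computed.

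**Figure D2:**
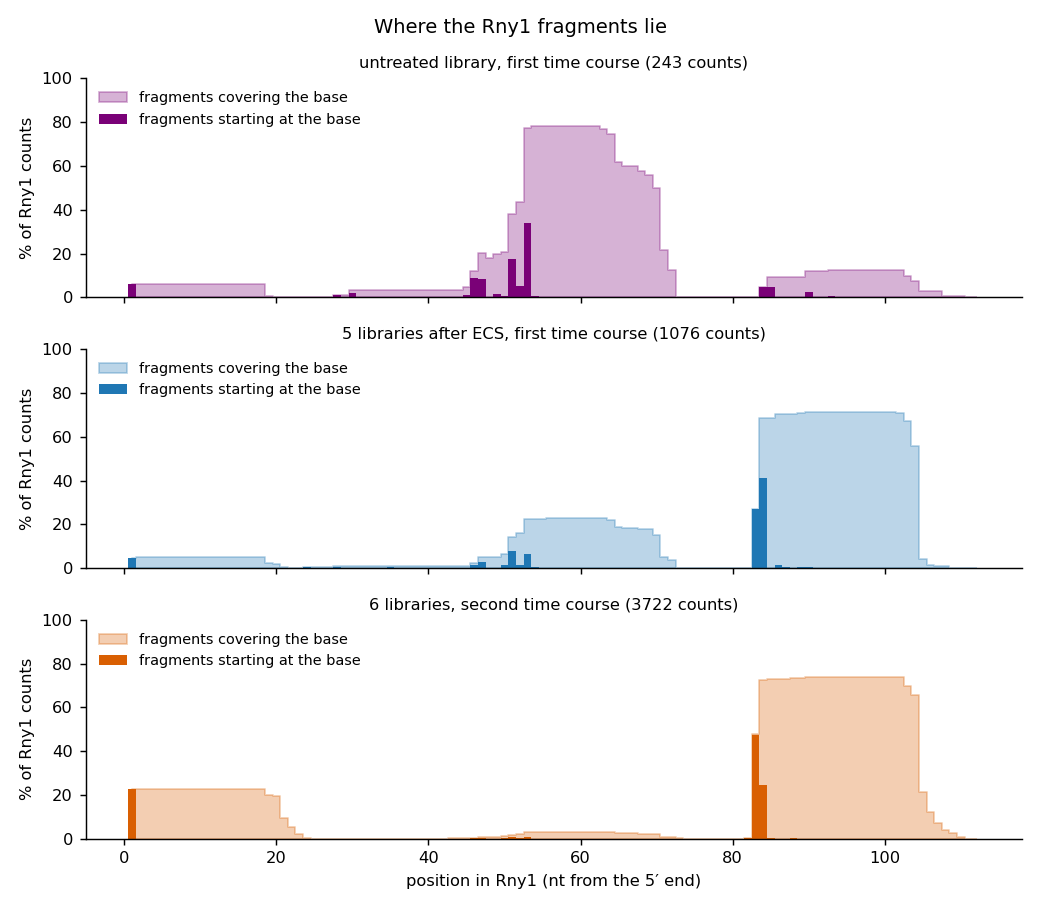
Percent of Rny1 counts that cover (shaded) or start at (bars) each position of the 112-nt RNA, for NT-1, for the 5 first-course libraries after ECS and for the 6 second-course libraries, each panel summed over its libraries. The main block lies at 46 to 72 in NT-1 (243 counts) and at 83 to 104 in the other 2 panels (1076 and 3722 counts).

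The fragment from the 5′ end of Rny1 varied from library to library. Its counts in the first course were 15, 10, 19, 6, 14 and 2, in the order NT-1 to 24h-1, or 0.714% to 26.9% of the Rny1 counts. In the second course they were 92, 26, 180, 439, 0 and 114, or 0% to 46.0%. The high count in 3h-2 and the 0 of 209 in 6h-2 (a share of up to 1.80% by the Wilson 95% interval) stood in neighbouring times of the same course, so that the spread among the 6 libraries exceeded counting error. The share of Rny1 counts from tags centred in the 5′ part of the RNA, up to its midpoint, averaged 16.6% ± 12.7 (SD, n = 6) over the first course and 19.8% ± 17.4 (SD, n = 6) over the second, a difference of 3.12 points (exact permutation test over 64 flips, two-sided, p = 0.813, adjusted p = 0.813 over 5 tests). It was higher in the second course at 3 of 6 times, and the sign of the difference turned when the pair at 3 h or that at 24 h was left out.

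**Figure D3:**
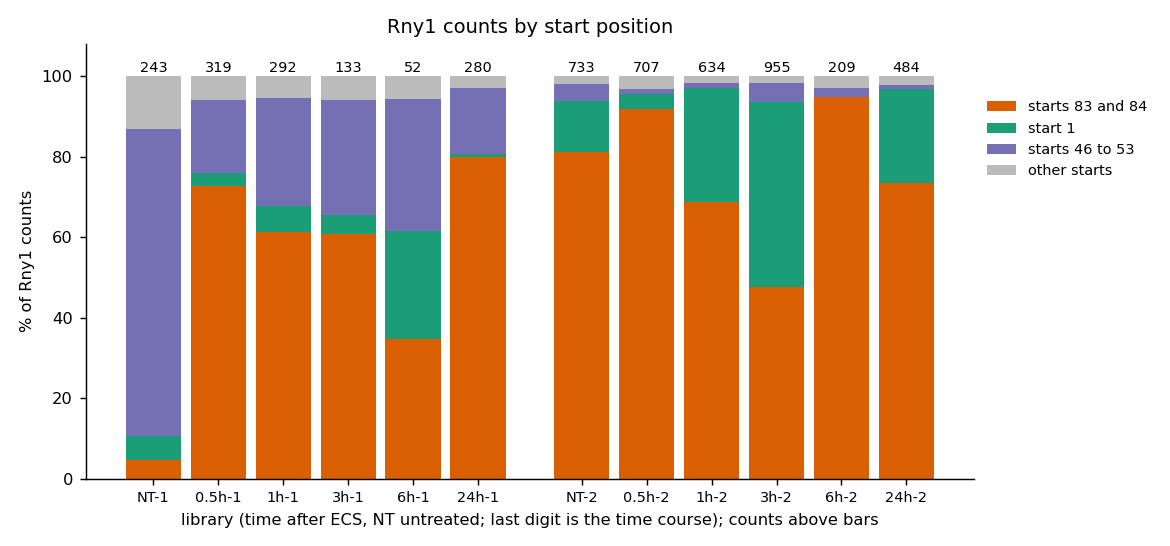
Stacked bars of the percent of Rny1 counts by start position in each library, with the Rny1 count above each bar. NT-1 differs from the other 11 libraries in its 76.1% from starts 46 to 53, and starts at position 1 run from 0% in 6h-2 to 46.0% in 3h-2.

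Of the 3432 counts from starts 83 and 84, 59.9% started at 83 and the rest at 84, and 63.1% ended at 104, which is 8 bases before the end of the RNA. Position 83 took 20.7% to 54.3% of these starts in the first course after ECS and 55.6% to 71.7% in the second course, and 0 of 11 in NT-1. In 0.5h-2, 41.3% ended at position 106 or beyond, against 0% to 16.1% in the other 11 libraries. Among tags from these starts that matched by their first 18 nt, 166 counts (4.36%) carried a last A that the transcript does not have, against 11 to 21 for each of the other bases. Sequencing errors and added bases cannot be told apart in these counts.

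Rny1 tags were longer in the second time course. Their mean length was 20.1 ± 0.756 nt (SD, n = 6) in the first course and 21.6 ± 0.561 nt (SD, n = 6) in the second, longer at 6 of 6 times by 1.51 nt on average (exact permutation test over 64 flips, two-sided, p = 0.03125, the smallest this design allows, adjusted p = 0.0521 over 5 tests). The ranges did not overlap, at 18.9 to 20.9 nt and 21.3 to 22.8 nt. Among tags from starts 83 and 84 alone the means were 20.9 ± 0.591 and 22.0 ± 0.46 nt (SD, n = 6), again longer at 6 of 6 times (exact permutation test, two-sided, p = 0.03125, adjusted p = 0.0521). The mean length of all miRNA tags moved with it, from 20.2 ± 0.384 nt to 21.1 ± 0.151 nt (SD, n = 6), longer at 6 of 6 times. Its part in the Rny1 difference was not tested. The length tests do not reach 0.05 with any 1 time point left out, since 5 pairs allow no p below 0.0625.

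The pieces of Rny1 also differed in length among themselves. Tags from starts 83 and 84 were most often 22 nt (48.3% of their counts), those from start 1 most often 20 nt (41.0%), and 50.4% of those from starts 46 to 53 were 18 or 19 nt. Of the other RNAs, 40.6% of the Rny3 counts, 62.9% of Rn7sk, 70.2% of Rmrp, 60.9% of Rpph1 and 5 of the 20 Vaultrc5 counts were 18 or 19 nt, against 5.16% of miRNA counts. Without NT-1 this was 30.4% for Rny3, 87 of 174 counts for Rn7sk, 57.6% for Rmrp, 35.7% for Rpph1, 0 of 11 counts for Vaultrc5 and 3.45% for miRNA.

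**Figure D4:**
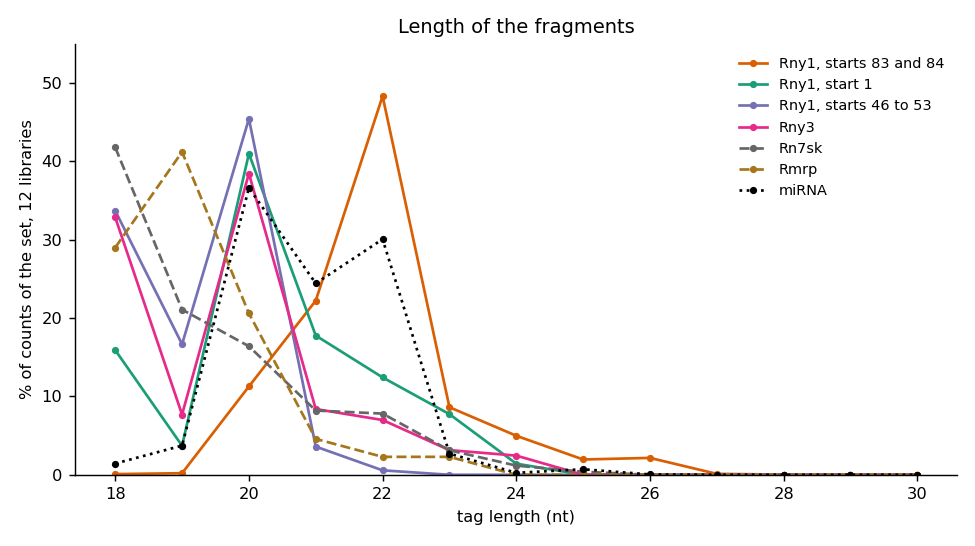
Percent of counts at each tag length (nt) over the 12 libraries, for 3 groups of Rny1 tags by start, for Rny3, Rn7sk and Rmrp, and for all tags that matched miRNA hairpins. The 3′ Rny1 tags peak at 22 nt, and Rn7sk and Rmrp at 18 and 19 nt, the short end of what was kept.

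Of the 286 Rny3 counts, 188 (65.7%, Wilson 95% interval 60.1% to 71.0%) started at position 1, and 15 (5.24%) started at position 74, which is 29 bases from the 3′ end, where position 83 is 30 bases from the 3′ end of Rny1. The first 20 bases of both RNAs agree at 16 positions and the last 29 at 23. In the 11 libraries with Rny3 counts, 27.3% to 86.7% of them started at position 1, against 0.714% to 46.0% of the Rny1 counts of the same libraries. The share was higher for Rny3 in 11 of 11 libraries, with means of 64.3% ± 17.9 and 14.7% ± 14.5 (SD, n = 11), a difference of 49.6 points (exact permutation test over the 2048 flips within libraries, two-sided, p = 0.000977, the smallest it can give, adjusted p = 0.00488 over 5 tests). The difference depended on giving Rny1 the tags it shares with other features. With tags that match 1 feature only, a setting added after the values were seen, start 1 held 917 of 1561 Rny1 counts (58.7%), and the means were 64.3% ± 17.9 for Rny3 and 49.1% ± 28.6 for Rny1 (SD, n = 11), a difference of 15.2 points, higher for Rny3 in 7 of 11 libraries (exact permutation test, two-sided, p = 0.169). All 917 Rny1 counts from start 1 matched Rny1 only, so that setting removed counts of other starts alone and raised the start 1 share. The Rny1 shares under it rest on 6 to 534 counts per library. The comparison itself was chosen after the values were seen, and the Rny3 share rests on 9 to 46 counts per library.

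Rn7sk fragments were spread over 58 start positions for 256 counts, where Rny1 had 35 starts for 5041. The fullest start, at position 240, held 27 counts (10.5%), all outside NT-1. Starts 58 and 59 held 39, of which 20 were in NT-1, start 244 held 18, and start 134 held 14, of which 11 were in NT-1. Only 32.8% of the Rn7sk counts came from tags that matched no other annotated small noncoding feature.

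Rmrp fragments lay mostly at the 5′ end. The starts at 5 and 6 of the 281-nt entry held 88 of 131 counts (67.2%, Wilson 95% interval 58.7% to 74.6%) in 11 libraries, and position 6 is the first base of the shorter 271-nt entry annotated as a ribozyme. Start 39 held 18 counts, 13 of them in NT-1. All Rmrp counts came from tags that matched no other small noncoding feature.

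Rpph1 had 12 of its 23 counts at starts 225 to 227, in 6 libraries, and 3 at position 55. Tags that matched no other small noncoding feature held 26.1% of its counts. That share does not leave out tags that also match the overlapping exon of Ccnb1ip1, such as the tag shown from position 55. The 20 Vaultrc5 counts fell on 8 starts, the fullest at position 117 with 5 counts. In the antisense direction there was 1 count for Rny1, 2 for Rmrp and 0 for the other 4, so that nearly all fragments came from the annotated strand.

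**Figure D5:**
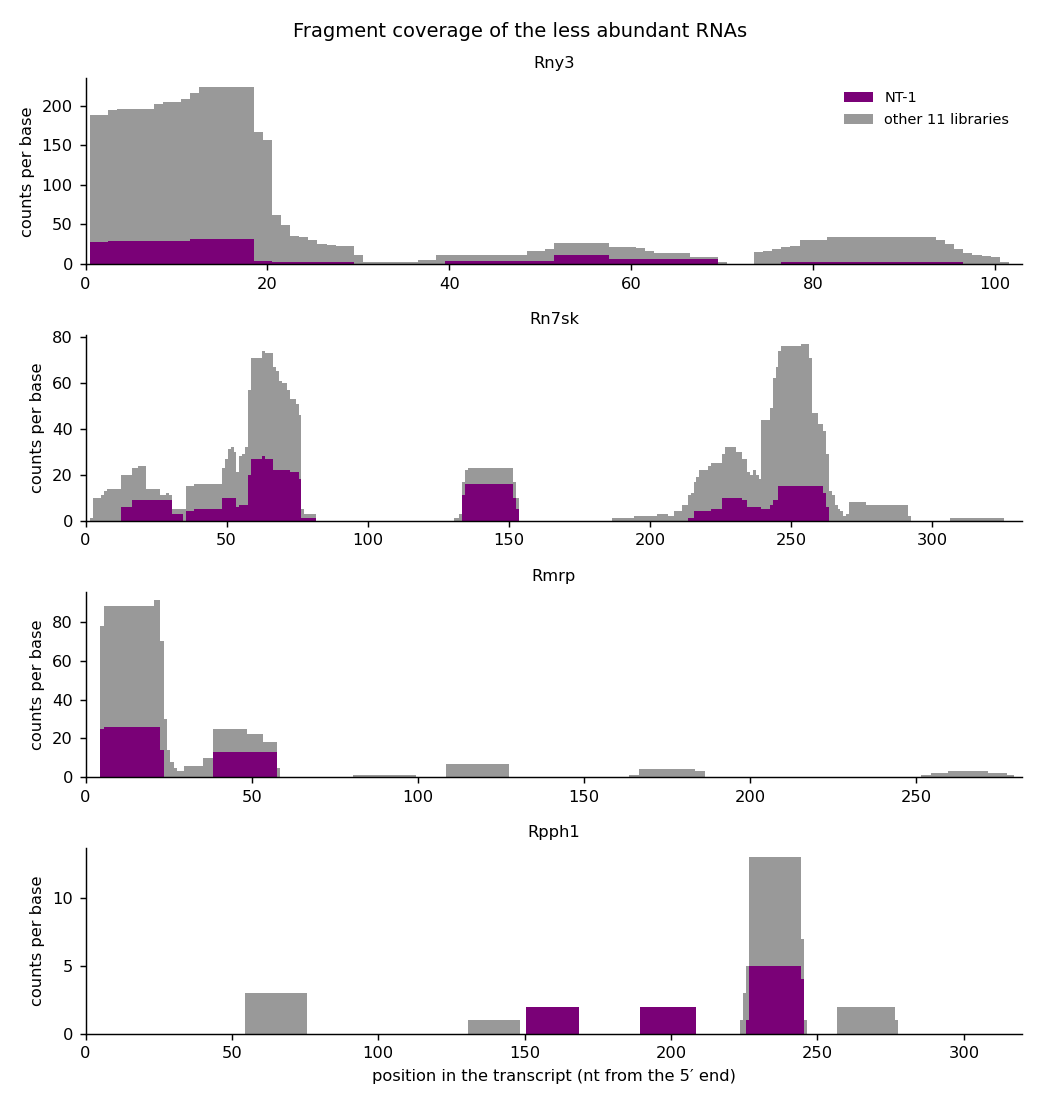
Counts that cover each position of Rny3, Rn7sk, Rmrp and Rpph1 (nt from the 5′ end), summed over libraries, with NT-1 in purple and the other 11 libraries in grey. Rny3 and Rmrp are covered mainly at their 5′ ends, Rn7sk in several separate blocks, and Rpph1 mainly from position 225 on.

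The 2 time courses were compared by edgeR's quasi-likelihood test with the time point as a covariate, over the 486 features that reached 10 counts in 2 or more libraries. Rny1, Rny3, Rn7sk and Rmrp passed this filter, while Vaultrc5 and Rpph1 did not. Of the 4 tested, 1 was called higher and 1 lower in the second course at an adjusted p under 0.05. Over all features 23.5% were called higher and 20.6% lower, 44% in all, so that 2 of 4 is close to the background.

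Rmrp was lower by 2.24 on the log2 scale (SE 0.576, n = 6 per course, edgeR adjusted p = 0.0081) and lower at 6 of 6 times. It passed the filter only through NT-1, 0.5h-1 and 1h-1 (39, 27 and 22 counts), all of the first course, where it is high. No second-course library had more than 9 counts, so its choice for testing was not independent of the difference. With no low-count filter the difference of Rmrp was -1.91 (edgeR adjusted p = 0.0119). In TMM-scaled CPM (counts scaled to library size) it fell from 8.21 ± 6.18 to 1.59 ± 0.706 (SD, n = 6). Without NT-1 the log2 difference was -1.96 (edgeR adjusted p = 0.0321), and the call was made in all 12 fits that left out 1 library and under the other settings in which Rmrp was tested. With both untreated libraries left out, a setting added after the values were seen, the log2 difference was -2.11 (edgeR adjusted p = 0.0202). Apart from the fit with no low-count filter, all of these fits chose Rmrp by the same filter. Their calls therefore add no support that is independent of that choice.

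Rny1 was higher by 1.21 on the log2 scale (SE 0.453, edgeR adjusted p = 0.0421), at 106.5 ± 28.9 and 248 ± 72.8 CPM (SD, n = 6), and higher at 6 of 6 times. The call held with DESeq2 (1.18, adjusted p = 0.0080), with DESeq2's size factors in edgeR (1.18, adjusted p = 0.0382) and without the time point as a covariate (1.22, edgeR adjusted p = 0.0163). It did not hold in any of the 12 fits that left out 1 library, with log2 differences of 0.91 to 1.35 and adjusted p of 0.0679 to 0.116, or when libraries were scaled to accepted reads (log2 difference 1.37, edgeR adjusted p = 0.0537), or with both untreated libraries left out (1.08, edgeR adjusted p = 0.100). Scaled to matched reads without TMM factors, a setting added after the values were seen, the difference was 0.15 (edgeR adjusted p = 0.828). That scaling moved the median of all 486 features from 0.03 to -1.03, and the calls from 114 higher and 100 lower to 48 higher and 201 lower. Rny1 as a percent of matched reads was 0.00866% to 0.0221% in the first and 0.0117% to 0.0229% in the second course, higher in the second at 3 of 6 times.

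Rn7sk (log2 difference -1.11, SE 0.629, edgeR adjusted p = 0.163) and Rny3 (-0.77, SE 0.638, edgeR adjusted p = 0.331) were not called, each with lower levels in the second course at 5 of 6 times. When libraries were scaled to matched reads both were called lower (-2.16, edgeR adjusted p = 0.0159, and -1.78, edgeR adjusted p = 0.0428). Rn7sk was also called lower when 3h-2 was left out (-1.73, edgeR adjusted p = 0.0371). All 4 directions were the same under the 3 scalings.

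After ECS no member was called at any time. Over the 486 features, 0 were called at any of the 5 times (0% each, edgeR), with 4, 3, 8, 7 and 5 at an unadjusted p under 0.05, while DESeq2 called 2 at 3 h and 0 at the other times, none of them a member. The adjusted p of the 4 RNAs over the 5 times lay between 0.943 and 1.0. The estimates for Rny1 ran from -0.02 to 0.52 on the log2 scale with SE of 1.12, and those for Rmrp from -2.30 to -0.53 with SE of 1.46 to 1.63. These comparisons share the same 2 untreated libraries. The fits for each time, and the fit below for any time, had no term for the time course, so their errors include the difference between courses. Errors of this size leave differences of several fold undetectable. With the time course as a block, 0 of 486 features and 0 of the 4 RNAs were called at each time (edgeR).

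Taking the 10 libraries after ECS together against the 2 untreated ones, 1 of 486 features was called lower (0.206%), the miRNA gene Mir181b, and 0 of the 4 RNAs. Rn7sk had the lowest unadjusted p of them (log2 difference -1.72, SE 0.728, n = 10 and 2, edgeR p = 0.0312, adjusted p = 0.902). Without NT-1, which leaves 1 untreated library that is assumed to vary like the others, its difference was -0.02 (edgeR adjusted p = 1.0). Rny1 differed by 0.15 (SE 0.736, edgeR adjusted p = 0.967), Rny3 by -0.69 (SE 0.818, edgeR adjusted p = 0.902) and Rmrp by -1.32 (SE 0.931, edgeR adjusted p = 0.902). Without NT-1 these became -0.25 for Rny1, 0.093 for Rny3 and 1.15 for Rmrp.

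Within the first course, Rny1 in NT-1 (0.00661%) was above all 5 libraries after ECS (0.00119% to 0.00507%), whereas within the second NT-2 (0.00968%) lay inside their range (0.00664% to 0.0126%). For Rn7sk, NT-1 (0.00223%) was above the 5 later libraries (0.000138% to 0.000476%), and NT-2 (0.000317%) lay inside their range (0.000102% to 0.000513%). Rmrp in NT-2 (7.92e-05%) also lay inside the range after ECS (1.37e-05% to 0.000118%). Each of these ECS effects rests on 1 untreated library, NT-1 in the first course. The error of their comparison comes from the spread among the libraries after ECS, which the untreated ones are assumed to share. The SE for the 4 RNAs was 1.10 to 1.43 on the log2 scale. The difference of the ECS effects between courses was tested as an interaction, which called 0 of 486 features (0%, edgeR, with 59 at an unadjusted p under 0.05, and 2 by DESeq2) and 0 of the 4 RNAs, with adjusted p of 0.571 to 0.888.

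Rny1 was 1 of 5 small RNAs that the study used as references on its arrays. In these size-selected libraries Rnu6 and Snord65 had 0 counts under their own names, Snord68 3 and Snord87 5 over the 12 libraries. Under its own name, Rny1 was the only one of the 5 that passed the filter. Genes with identical transcripts were counted under 1 name, and tags shared by such features were split equally and rounded. A 0 under a name therefore does not show that no tag matched, whereas Rny1 took tags it shared with them whole. Of 20 other structural RNAs listed for comparison, 17 were annotated under that name, 12 had counts under it and 4 passed the filter. Among these 4, 0 were called higher and 1 lower in the second course, the neuronal RNA polymerase III transcript Bc1 (log2 difference -2.88, SE 0.542, edgeR adjusted p = 0.00205), and their median difference was -0.45 against 0.03 over all features. None was called after ECS.

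Across the 12 libraries, the log2 level of Rny1 followed most closely those of Mir146b (Pearson r = 0.937) and Mir98 (r = 0.937) among 482 other features. Rny3 was closest to Rnu3a (r = 0.872) and Mir666 (r = 0.799), and Rn7sk to the mitochondrial tRNAs mt-Tr (r = 0.877) and mt-Te (r = 0.85). Rmrp was closest to Gm44337 and Gm44326 (r = 0.924 for each). Both of these had 70 counts, and whether they hold the same shared tags was not tested. Among the 4 RNAs themselves, r was 0.798 for Rny3 and Rn7sk, 0.72 for Rn7sk and Rmrp and 0.593 for Rny3 and Rmrp, but 0.121, 0.161 and -0.07 for Rny1 with Rny3, Rn7sk and Rmrp. These values are descriptive, since the libraries share time courses and NT-1 is an extreme point for all but Rny1.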

How the data were processed

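Small RNA of the hippocampus was cloned from 12 mice with an Illumina kit (Digital Gene Expression, small RNA) and read on a Genome Analyzer IIx. For each library the authors deposited raw counts of each distinct insert of at least 18 nt, after adapter removal and before alignment and with no normalization. The totals are the accepted reads, from 1897490 to 7657222 per library. Here each tag was matched exactly to the small noncoding transcripts of GENCODE M21 (GRCm38), while the study's own mapping used NCBI assembly 37. A tag that matched a miRNA hairpin went to the miRNA, else to one of the 6 RNAs, else it was split equally among the features matched. Matches elsewhere in the genome were not analysed here. Exact matching leaves out reads with errors or added bases, which concerned between 0% and 23.1% of the counts that matched a member by the first 18 nt.

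Features that reached 10 counts in 2 or more libraries were tested in edgeR 4.0.16 (R 4.3.3, glmQLFit, TMM, Benjamini-Hochberg adjustment), and by DESeq2 1.42.0 as an alternative. The fits for the time course and for 3 h after ECS were also run on simulated counts. In the 3 h case these held no difference between courses, so they do not represent the fits after ECS. Fractional counts of shared tags were rounded. Positions, lengths and exact permutation tests were computed in Python 3.11.15, and structures with RNAfold 2.7.2. Shares have Wilson 95% intervals, and a count of 0 allows 3 counts. The labels number the replicates, and the study describes its second time course as a biological replicate of the first. The place of each untreated library rests on this number, since the study's own listings of read totals do not assign these libraries alike. The replicate number marks the course, and libraries of the same course deviated together from the means of their time points (mean r = 0.586, lowest 0.47 over 15 pairs of time points), so the numbers pair the libraries. The study's results section states that libraries were made from individual mice, so p-values measure the spread between mice and libraries together. With only 2 time courses, they do not measure the spread between courses.

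The 6 RNAs, the comparison lists and the markers were chosen with earlier results of these data known. The genes named are the 6 RNAs, the 2 features closest to each by Pearson r of log2(percent + 3 counts as percent), the listed references, and for each RNA the leading tag and that of any other start with at least 10% of its counts. The tags Rny1 53 to 70 and Rny3 74 to 94, the start groups and Mir181b and Bc1 were named after their values were seen. No sequence of Vaultrc5 is printed.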

Additional observations from a re-analysis of the deposited data

Results flagged for a closer look

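In each time course of 6 libraries, the distance of the highest and the lowest library from the others was examined for 11 measures, and 7 of 22 sets had a library far from the rest, where chance gives about 1 in 20. In the first course NT-1 stood above the other 5 libraries in Vaultrc5 (0.000245% of accepted reads), Rn7sk (0.00223%) and Rmrp (0.00106%), and in the share of Rny1 counts from starts 46 to 53 (76.1%). These 4 values come from 1 library, which also had the highest share of 18 and 19 nt reads (49.0%). In 6h-1, with 52 Rny1 counts, 26.9% of them started at position 1, above the other first-course libraries. In the second course 24h-2 stood apart in Rpph1 (6.86e-05%, 5 counts), and 0.5h-2 in the mean length of Rny1 tags (22.8 nt).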

How the results depend on the processing

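The number of the 4 tested RNAs called between the time courses was 2, and it was 1 when scaled to accepted reads, with no low-count filter, with tags that match 1 feature only, by the first 18 nt or without the untreated pair, 0 with at least 50 counts in 2 libraries (where 1 RNA was tested), and 1 to 2 when each library was left out. Rny1 was not called in any of these fits. Scaled to matched reads, 3 were called, all lower and without Rny1. Over all features this comparison called 214, 141 without 1h-2, and 149 to 265 under the other settings. After ECS 0 of the 4 RNAs were called at each time, at any time and in the interaction under every setting run, the replicate block included, so that the block changed no call of a member. Any time after ECS, the Rny1 difference of 0.15 became -0.29 when scaled to accepted reads, -0.32 when scaled to matched reads, -0.066 with at least 50 counts in 2 libraries, -0.040 by the first 18 nt, and -0.25 to 0.55 with each library left out (-0.25 without NT-1, -0.01 without 1h-2, -0.12 without 3h-2). With each library left out, that of Rny3 ran from -1.25 to 0.093 and that of Rmrp from -2.21 to 1.15, positive without NT-1 in both. The Rny1 interaction of 0.40 became -0.31 with no filter. The one feature called at any time after ECS was lost with the replicate block, and 3 were called with accepted reads. The 5′ share difference of 3.12 points ran from -3.68 to 10.4 with each time point left out (-3.68 without 3 h, -0.69 without 24 h), and the length difference of 1.51 nt from 1.31 to 1.72, each with exact p = 0.0625, the smallest 5 pairs allow. That of the tags from starts 83 and 84 was 0.93 nt without the untreated pair (exact p = 0.0625). Position and length by tags that match 1 feature only could not be computed, since a library had fewer than 20 such counts. As a percent of matched reads the mean Rny1 level was 0.0163% in place of 0.00692%, and by tags that match 1 feature only it was 0.0019%. The start 1 difference between Rny3 and Rny1 of 49.6 points was 15.2 (exact p = 0.169) with such tags. Fits without 1 untreated library keep 1 in that group, assumed to vary like the others. The causes were not tested. Depth limits Vaultrc5 and Rpph1, with 0 to 9 counts per library, to a description.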
